A study of Sus scrofa with 12 samples.

Results

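Some transcripts of differentiating pig fat precursor cells moved one way when the receptor F2RL2 was targeted by an siRNA and the other way when the receptor GPR124 was. On the microarrays described here, 277 of 43221 probes met a rule for such opposite movement, and they fell into 2 sets. In 167 probes, called the F2RL2-high probes below, the level was higher with F2RL2 siRNA and lower with GPR124 siRNA than with control siRNA. In 110 probes, called the GPR124-high probes, it was lower with F2RL2 siRNA and higher with GPR124 siRNA. The rule took the scanner software's processed signals, formed the log2 ratio of sample over reference on each array and centred it on the array's median. It asked for differences from the control siRNA mean of at least 0.6 in opposite directions, with the higher of the F2RL2 and GPR124 groups well above background on all of its 3 arrays.

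The cells were pre-adipocytes from female pig subcutaneous tissue, which received an siRNA and were differentiated up to day 4. The differentiation medium was rich in glucose and held octanoate (5 mM), pantothenate, biotin, dexamethasone (0.25 µM) and insulin (5 µg/ml). A serum content, the same for all 12 arrays, was also recorded, so this list is not a serum-free recipe. The 4 groups of 3 arrays received the AllStars negative control siRNA from QIAGEN or SIGMA-designed siRNAs against F2RL2, LGR4 or GPR124. On all 12 arrays this RNA carried Cy3, and RNA of untransfected, undifferentiated cells of day 0 carried Cy5 as a common reference, with 400 ng labelled for each dye. One label field spells the F2RL2 target R2RL2, and the titles were followed. The labels do not say that replicates were separate cultures or how many siRNAs were used per target, so p-values measure only how far the arrays of a group spread, and that spread may be technical. All are bulk samples, in which fewer cells of a type and less RNA per cell cannot be told apart.

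The 3 targets belong to different branches of the G-protein-coupled receptors. F2RL2 is a protease-activated receptor, a family switched on when a protease such as thrombin cuts the receptor's outer end. LGR4 binds R-spondins, secreted proteins that strengthen Wnt signalling. GPR124 is an adhesion receptor that helps certain Wnt ligands to signal in endothelial cells of the brain. Wnt signalling is known to hold preadipocytes back from becoming fat cells, and insulin and glucocorticoids such as dexamethasone are standard inducers of that conversion. The gene tables used here name 0 of the 43221 probes, so probes are described without gene names. The knockdown of each target and the cell type's markers were not analysed here. Several probes may report on 1 gene, so counts of probes are not counts of genes.

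The arrays lay on 3 slides, which is the one batch the files show. Slide 1 held the 3 control arrays and F2RL2 replicate 1, slide 2 held F2RL2 replicates 2 and 3 with LGR4 replicates 1 and 2, and slide 3 held LGR4 replicate 3 with the 3 GPR124 arrays. GPR124 arrays thus shared no slide with control or F2RL2 arrays, and LGR4 arrays shared none with control arrays. Probes well above background numbered 24720 to 29381 per array in Cy3 and 23594 to 32394 in Cy5. The scanner software flagged 1 to 4 outlier spots per array on slides 1 and 2 and 154 to 335 on slide 3.

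On the scale of the rule, the F2RL2-high probes had a median F2RL2 minus control difference of 0.92 (0.60 to 4.14) and a median GPR124 minus control difference of -1.08 (-4.68 to -0.60). The GPR124-high probes had medians of -0.82 (-3.25 to -0.60) with F2RL2 siRNA and 1.11 (0.61 to 5.20) with GPR124 siRNA. The probes were chosen by these differences, which are therefore a description with no test. Both sets shade into their surroundings at the threshold. The last F2RL2-high probe inside had differences of 0.60 and -0.87, and the first outside had 0.597 and -0.73. The smaller of the 2 differences was under 0.7 for 55 of the 167, and 114 further probes lay between 0.5 and 0.6. Of the GPR124-high probes, 42 of 110 had a smaller difference under 0.7, with -0.60 and 1.48 just inside, -0.596 and 1.51 just outside, and 106 further probes between 0.5 and 0.6. On this scale the median over the 32346 probes measured well enough for testing was 0.10 higher with F2RL2 siRNA and 0.36 higher with GPR124 siRNA than with control siRNA. A GPR124 difference of -0.60 is therefore farther from the bulk of probes than one of 0.60.

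All further values use a second normalization of the same spots, in which background was corrected by a fitted model (normexp) and each array's log2 ratio was straightened against brightness (loess). It brings the median of all probes to within 0.027 of control in each siRNA group. Values above 0 stand for more of the transcript at day 4 than in the day 0 reference, and a value of 1 is a doubling. On this scale the differences were smaller. Their signs were mostly kept, but both still reached 0.6 in only 69 of 167 F2RL2-high and 31 of 110 GPR124-high probes. The median F2RL2-high probe had a log2 ratio of 0.29 with control siRNA, 0.88 with F2RL2 siRNA, 0.58 with LGR4 siRNA and -0.23 with GPR124 siRNA. The median GPR124-high probe had -0.065, -0.60, -0.30 and 0.58 in the same order. The median SD between the 3 arrays of a group was 0.10 to 0.18 for the F2RL2-high probes and 0.10 to 0.17 for the GPR124-high probes, highest in the GPR124 group each time, against 0.075 to 0.12 over all probes.

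The opposite movement had the sign of the choice in 158 of 167 F2RL2-high and 109 of 110 GPR124-high probes after loess. In 128 F2RL2-high probes the 3 F2RL2 arrays lay wholly above and the 3 GPR124 arrays wholly below the 3 control arrays, a pattern that 4.66% of all probes had. In 86 GPR124-high probes the arrays were separated the other way round, as in 5.07% of all probes. Both differences still reached 0.6 in 69 and 31 members respectively, against 0.371% and 0.105% of all probes. Among the F2RL2-high probes, 132 were called higher with F2RL2 siRNA (background 10.0%) and 138 lower with GPR124 siRNA (16.9%), with limma and a Benjamini-Hochberg adjusted p under 0.05. Among the GPR124-high probes, 77 were called lower with F2RL2 siRNA (7.95%) and 86 higher with GPR124 siRNA (22.5%). With slide as a block in the fit, the F2RL2 calls fell to 108 (background 7.25%) and 48 (5.51%). The GPR124 calls fell to 43 (3.77%) and 25 (4.12%). Without the block, both calls were made in 117 F2RL2-high probes (2.29%) and in 64 GPR124-high probes (1.88%). Since these comparisons chose the probes, the counts are descriptive.

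The control, F2RL2 and GPR124 arrays that chose a probe also give the values above, so the choice was repeated on 2 arrays of each group and the remaining replicate number was read alone. This check was added after the data were seen. Chosen without replicate 1, 274 F2RL2-high probes were found, and 196 (71.5%) were higher with F2RL2 and lower with GPR124 siRNA on the replicate 1 arrays, against 20.8% of all probes. The figures were 194 of 243 (79.8%, background 23.8%) on replicate 2 and 113 of 127 (89.0%, 23.9%) on replicate 3. GPR124-high probes kept their pattern on the array left aside in 128 of 157 (81.5%, 22.1%), 112 of 134 (83.6%, 25.1%) and 130 of 146 (89.0%, 20.5%). The signs therefore mostly recurred on arrays that had not chosen the probes, and the slides limit what this shows. On those arrays the median F2RL2 minus control difference was 0.40, 0.44 and 0.79 for F2RL2-high and -0.33, -0.38 and -0.50 for GPR124-high probes. The median GPR124 minus control difference was -0.51, -0.58 and -0.85, and 0.41, 0.55 and 0.63. LGR4 siRNA, read on the same array numbers, lay above control in 72.6%, 61.7% and 69.3% of these F2RL2-high probes (background 52.4%, 53.4% and 53.2%). It lay below control in 74.5%, 65.7% and 70.5% of these GPR124-high probes (47.6%, 46.6% and 46.8%). The same control array enters all of these differences. Control arrays left aside always lay on slide 1 and GPR124 arrays left aside on slide 3, like those that chose. A difference between these slides would therefore recur as well, and the check cannot tell it from an effect of GPR124 siRNA.

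Probes that illustrate the sets are named by their array identifiers because the files pair them with no gene. They are the 2 of each set, without outlier flags, with arrays wholly on opposite sides of control and with the largest smaller difference after loess. Probe AGPOA3-07016, an F2RL2-high probe, had log2 ratios of -1.55, -1.53 and -1.73 on control replicates 1 to 3. It stood at 0.25, -0.0061 and 0.11 with F2RL2 siRNA, at -0.51, -0.56 and -0.62 with LGR4 siRNA, and at -3.25, -3.51 and -3.84 with GPR124 siRNA. The 4 groups did not overlap. In control cells this transcript was below its day 0 level (-1.605 ± 0.11, SD, n = 3), with F2RL2 siRNA it was near that level, and with GPR124 siRNA it was lowest. Its F2RL2 minus control difference was 1.72 and its GPR124 minus control difference was -1.93. LGR4 siRNA, which did not choose it, placed it 1.04 above control (SE 0.13, 2.06-fold, limma adjusted p = 7.43e-05, higher on 3 of 3 arrays).

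The other F2RL2-high probe named, AGPOA3-21213, had ratios of 0.11, 0.20 and -0.020 in control cells after loess. The control mean of 0.097 did not pass the test against the day 0 level (limma adjusted p = 0.143), and with median centring it turned to -0.44 and passed (adjusted p = 0.000333), in a range of 0.000333 to 0.921 over 19 alternatives. Its ratios were 2.94, 2.86 and 2.91 with F2RL2 siRNA, -0.28, -0.26 and -0.41 with LGR4 siRNA, and -1.53, -1.66 and -1.49 with GPR124 siRNA. The F2RL2 arrays stood 2.81 above the control mean, the highest F2RL2 minus control difference of all 32346 probes, and the GPR124 arrays 1.66 below it on average (difference -1.66). LGR4 siRNA lay on the GPR124 side, with a difference from control of -0.42 (SE 0.078, 1.33-fold lower, limma adjusted p = 0.002). Adding slide to the fit ended that call (-0.32, adjusted p = 0.224), as did median centring instead of loess (-0.26, adjusted p = 0.235), in a range of 0.00172 to 0.235 over 20 alternatives.

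Of the GPR124-high probes, AGPOA3-26962 had ratios of 2.58, 2.44 and 2.75 with control siRNA and 3.58, 5.64 and 5.73 with GPR124 siRNA. With F2RL2 siRNA it had 0.70, 0.76 and 0.59, and with LGR4 siRNA 0.78, 1.03 and 0.93. The F2RL2 and LGR4 arrays overlapped each other and lay below all control arrays, and GPR124 replicate 1 lay well under the other two of its group. Its reference signal was not well above background on any control, F2RL2 or LGR4 array and on 1 of 3 GPR124 arrays, so the size of its ratios is uncertain. Control cells exceeded the reference at least 5.66-fold. The GPR124 minus control difference was 2.40 after loess and 0.73 with processed signals, and 3.15 in Cy3 alone, while Cy5 itself differed by 0.75. LGR4 siRNA differed from control by -1.68 (SE 0.41, limma adjusted p = 0.0107), and this call ended with processed signals (-2.46, adjusted p = 0.116) or once slide was in the fit (-1.66, adjusted p = 0.266), over a range of 2.83e-07 to 0.266 in 19 alternatives. The same settings ended the F2RL2 call (limma adjusted p = 0.0661 and 0.0829) and the GPR124 call (0.558 and 0.207). Its opposite movement thus depended on the processing.

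AGPOA3-09506, the other GPR124-high probe named, was well above background in both channels on all 12 arrays. Its ratios were 0.77, 0.90 and 1.34 with control siRNA, -0.55, -0.53 and -0.28 with F2RL2 siRNA, -0.67, -0.32 and -0.42 with LGR4 siRNA, and 2.36, 2.77 and 2.96 with GPR124 siRNA. Control cells were thus above the day 0 level, GPR124 cells further above it, and F2RL2 and LGR4 cells below it, with the last 2 groups overlapping. The F2RL2 minus control difference was -1.45 and the GPR124 minus control difference was 1.70. LGR4 siRNA differed from control by -1.47 (SE 0.17, 2.78-fold lower, limma adjusted p = 5.18e-05, lower on 3 of 3 arrays). The LGR4 call held in all 20 alternatives, with adjusted p from 1.01e-05 to 0.0164. The slide block, which gave the highest of these, used the F2RL2 arrays that chose the probe and is no separate check. With that block the GPR124 minus control difference was 1.475 and lost its call (limma adjusted p = 0.0649).

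LGR4 arrays took no part in the choice of probes, so the LGR4 comparison was tested, although it uses the same 3 control arrays. No LGR4 array shared a slide with control arrays. LGR4 replicates 1 and 2 lay on slide 2 with F2RL2 replicates 2 and 3, which helped choose the probes. For these LGR4 arrays, a shift of slide 2 against slide 1 and an effect of LGR4 siRNA cannot be told apart. Among the 167 F2RL2-high probes, 63 were higher (37.7%) and 17 lower (10.2%) with LGR4 siRNA than with control siRNA, and 87 did not pass (limma, Benjamini-Hochberg adjusted p under 0.05 over all probes). Over all 32346 probes, 13.7% were called higher and 9.37% lower. Among the 110 GPR124-high probes the balance was turned, with 4 higher (3.64%), 42 lower (38.2%) and 64 that did not pass. In each set the called LGR4 differences thus mostly had the direction of the F2RL2 group, at a share above the background for that direction, while the share in the GPR124 direction was near the background in the F2RL2-high probes and below it in the GPR124-high probes.

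The median LGR4 minus control difference was 0.18 in the F2RL2-high probes (quartiles -0.063 and 0.64) and -0.24 in the GPR124-high probes (quartiles -0.59 and -0.033), against 0.027 over all probes (quartiles -0.12 and 0.17). With processed signals, the scale of the rule, the medians of the 2 sets were 0.39 and -0.50, against -0.016 over all probes. The single LGR4 arrays gave medians of 0.25, 0.22 and 0.22 in the F2RL2-high probes and -0.31, -0.22 and -0.15 in the GPR124-high probes. All 3 LGR4 arrays lay above all 3 control arrays in 78 F2RL2-high and 7 GPR124-high probes (background 24.9%). They lay below all of them in 19 and 54 (18.8%). A difference of at least 0.6 upwards was reached by 47 F2RL2-high probes and 1 GPR124-high probe (background 4.5%), and downwards by 11 and 27 (2.38%). For comparison, F2RL2 siRNA had medians of 0.63 and -0.62 and GPR124 siRNA -0.73 and 0.61, but the choice required large differences of these siRNAs and not of LGR4 siRNA, so their sizes are not comparable.

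Individual members spread widely around these medians. On a line from the GPR124 mean (0) to the F2RL2 mean (1), the median place of the LGR4 mean was 0.72 in the 158 F2RL2-high probes that kept their order after loess, with quartiles of 0.46 and 0.96, and the median place of control was 0.55. LGR4 lay between control and F2RL2 in 78 of them, beyond F2RL2 in 32, between GPR124 and control in 43 and beyond GPR124 in 5. In the 109 GPR124-high probes in order, its median place was 0.78 (quartiles 0.54 and 0.92) and that of control 0.49. There LGR4 lay between control and F2RL2 in 66, beyond F2RL2 in 21, between GPR124 and control in 22, and beyond GPR124 in 0. It was nearer to F2RL2 than to GPR124 in 114 of 158 and in 88 of 109. These places depend on the means that chose the probes and have no test.

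The widest LGR4 differences lay at both ends. One F2RL2-high probe went from -0.86 ± 0.054 with control siRNA to 1.504 ± 0.13 with LGR4 siRNA, a difference of 2.36 (SE 0.23, 5.15-fold, limma adjusted p = 1.14e-05), with F2RL2 siRNA at 0.36 and GPR124 siRNA at -1.58. Another, with control at -0.84, rose by 2.14 (adjusted p = 3.06e-06). In the opposite direction, an F2RL2-high probe fell from 2.91 ± 0.14 to 1.06 ± 0.24 with LGR4 siRNA (difference -1.84, SE 0.18, adjusted p = 1.2e-05), close to its level of 0.86 with GPR124 siRNA. A GPR124-high probe fell from 2.23 ± 0.086 to -0.0053 ± 0.16 (difference -2.24, SE 0.16, adjusted p = 8.82e-07), where LGR4 signal was well above background on 1 of 3 arrays. The highest LGR4 difference among GPR124-high probes was 0.77 (SE 0.13, adjusted p = 0.00109), in a probe that GPR124 siRNA took from 0.58 to 4.36. These 5 members were picked after their values were seen.

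Slide and siRNA group were partly entangled, and fewer LGR4 calls were made with slide as a block. With slide as a block, 37 F2RL2-high probes were higher and 3 lower with LGR4 siRNA (background 5.63% and 2.75%), and 1 GPR124-high probe was higher and 17 lower. The median differences were then 0.20 and -0.25. The block fit reached the control level only by way of the F2RL2 arrays, which had chosen the probes. LGR4 replicate 3 added nothing to its LGR4 differences. These block values are therefore a description and cannot serve as a slide-adjusted test of LGR4 siRNA. With median centring the counts were 62 and 12, and 1 and 28 (background 8.21% and 2.84%), and with processed signals 51 and 14, and 1 and 44 (9.45% and 8.04%). LGR4 replicates 1 and 2, on slide 2, differed from control by a median of 0.19 in the F2RL2-high probes, and LGR4 replicate 3, on slide 3, by 0.22. In the GPR124-high probes the same arrays differed by -0.25 and -0.15. Most arrays compared within a slide had also chosen the probes, so these values are a description and support nothing. Within slide 2, the F2RL2 arrays exceeded the LGR4 arrays in 132 of 167 F2RL2-high probes (median 0.35) and in 24 of 110 GPR124-high probes (median -0.27), against 48.4% of all probes. Within slide 3, LGR4 replicate 3 exceeded the GPR124 mean in 157 of 165 F2RL2-high probes (median 0.94) and in 1 of 109 GPR124-high probes (median -0.83), against 50.3%. Within slide 1, F2RL2 replicate 1 exceeded the control mean in 162 of 167 F2RL2-high probes (median 0.71) and in 3 of 110 GPR124-high probes (median -0.53), against 51.0%. F2RL2 replicates 2 and 3, on the other slide, had medians of 0.63 and -0.65. No slide held both control and GPR124 arrays, so that difference had no value within a slide, and its calls fell most with slide as a block. With GPR124 siRNA, 43 F2RL2-high probes were then called lower (background 3.77%), against 138 without the block, and 25 GPR124-high probes higher (4.12%), against 86.

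In control cells, the members were compared with the day 0 reference, a comparison that includes differentiation, transfection and dye, which cannot be told apart because the reference was untransfected and dyes were not swapped. Of the F2RL2-high probes, 94 (56.3%) stood above and 38 (22.8%) below the day 0 level at day 4, against 28.6% and 34.6% of all probes (limma, Benjamini-Hochberg). Of the GPR124-high probes, 38 (34.5%) were higher and 44 (40.0%) lower. F2RL2-high probes were thus called raised at day 4 at a higher share than all probes, and GPR124-high probes were nearer to the background in both directions. The rule asked for Cy3 well above background and set no condition on Cy5, while all probes could be kept on Cy5 alone. Cy5 was well above background on none of the control arrays in 26 F2RL2-high probes, against 543 of 32346. This filter favours ratios above 0, so the share raised cannot be read as a trait of the F2RL2-high probes. A control ratio of at least 1 was found in 30 F2RL2-high and 5 GPR124-high probes (background 3.62%), and one of -1 or lower in 13 and 14 (5.67%). With median centring, which set the median of all probes at -0.24, 26 GPR124-high probes were called higher and 54 lower, and 93 F2RL2-high probes higher and 51 lower, against 18.9% higher and 50.5% lower of all probes. The test uses the reference as 1 sample and leaves out its spread. The control arrays also entered the choice of the probes.

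Both sets held transcripts raised and lowered at day 4. The 94 F2RL2-high probes raised in control cells had a median ratio of 0.81 there, 1.58 with F2RL2 siRNA, 0.94 with LGR4 siRNA and 0.069 with GPR124 siRNA. With GPR124 siRNA their median was thus close to the day 0 level. The 38 lowered ones had medians of -0.87, -0.061, -0.49 and -1.58, so here the median with F2RL2 siRNA was the one near day 0. The 35 that were not called had 0.083, 0.64, 0.26 and -0.52. In the GPR124-high probes, the 38 raised ones had medians of 0.57 with control, -0.0061 with F2RL2, 0.13 with LGR4 and 1.33 with GPR124 siRNA, and the 44 lowered ones had -0.63, -1.45, -1.01 and 0.047. The 28 not called had -0.051, -0.61, -0.13 and 0.57. The rule set the sides of F2RL2 and GPR124 siRNA against control in both sets. Which of them came nearer to day 0 among raised or lowered probes was therefore largely fixed by the choice, and these medians are a description.

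LGR4 calls were also counted within these classes, beside all probes of the same class, because the control arrays define the classes as well as the LGR4 difference. Over all probes, LGR4 siRNA was called higher in 7.88% and lower in 19.9% of those raised in control cells, higher in 26.0% and lower in 5.33% of those lowered, and higher in 6.57% and lower in 5.01% of those not called. Among F2RL2-high probes, 29 were higher and 14 lower of the 94 raised, 23 higher and 1 lower of the 38 lowered, and 11 higher and 2 lower of the 35 not called. Among GPR124-high probes, 2 were higher and 23 lower of the 38 raised, 2 higher and 15 lower of the 44 lowered, and 0 higher and 4 lower of the 28 not called. The share called in the F2RL2 direction was above that of all probes of the same class in each of these 6 counts. The difference between classes was not tested. In 85 F2RL2-high probes the F2RL2 mean lay above and the GPR124 mean below the day 0 reference, and in 70 GPR124-high probes the F2RL2 mean lay below and the GPR124 mean above it. All 4 group means stood above the reference in 63 and 17 members, and all below in 19 and 20. The rule itself places F2RL2 and GPR124 means on opposite sides of a control ratio near 0. The shares over all probes were not worked out, so these counts are a description only.

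The differences lay in the sample channel. In Cy3 alone, the F2RL2-high probes differed from control by medians of 0.73 with F2RL2, 0.25 with LGR4 and -0.78 with GPR124 siRNA, and the GPR124-high probes by -0.51, -0.25 and 0.58. Median Cy5 differences, which should be 0 for a common reference, ran from -0.044 to 0.048 and from -0.035 to 0.078. Cy5 differed by 0.6 or more in 1, 4 and 8 F2RL2-high probes for F2RL2, LGR4 and GPR124 siRNA, and in 4, 1 and 4 GPR124-high probes. Over all 32346 probes it did so in 387, 772 and 1164. In Cy3 alone, LGR4 siRNA raised 56 and lowered 15 F2RL2-high probes (background 10.3% and 7.48%), and raised 6 and lowered 36 GPR124-high probes.

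With control siRNA, members were dimmer than the 32346 kept probes. The median log2 Cy3 signal with control siRNA was 7.89 for the F2RL2-high and 8.19 for the GPR124-high probes, against 8.69 for all probes. F2RL2-high probes had 8.63 with F2RL2 siRNA, against 8.69 for all probes. GPR124-high probes had 9.05 with GPR124 siRNA, above the 8.67 of all probes. Cy3 was well above background on all arrays of a group in 145 F2RL2-high probes with control siRNA, in 129 with LGR4 siRNA and in 76 with GPR124 siRNA, besides the 167 the rule requires with F2RL2 siRNA. In 37 of them it was well above background on none of the GPR124 arrays, so that only a bound can be given. F2RL2 cells exceeded GPR124 cells by at least 1.46-fold at the median of these 37 and by at least 7.25-fold at the highest, and in 36 the bound was over 1. Of the GPR124-high probes, 104 were measured on all control arrays, 93 on all F2RL2 and 86 on all LGR4 arrays. In 8 they were well above background on none of the F2RL2 arrays, with GPR124 cells at least 1.997-fold higher at the median and at least 22.96-fold at the highest. Over all 32346 probes, the counts measured on all arrays of a group were 27147 with control and 26661 with F2RL2 siRNA. They were 23907 with LGR4 and 23264 with GPR124 siRNA. On none of the F2RL2 arrays there were 2695, and on none of the GPR124 arrays 3327. With control and LGR4 siRNA, members were thus measured at shares no lower than all probes.

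The reference channel was a further limit of the F2RL2-high probes. Cy5 was well above background on none of the control arrays in 26 of them and in 5 GPR124-high probes, against 543 of all 32346 probes. Of the 9 F2RL2-high probes that did not keep their order after loess, 7 were among these 26. Restricted to probes measured in the sample channel on all arrays of at least 1 group and in Cy5 on at least 6 of 12 arrays, 129 F2RL2-high probes remained, and LGR4 siRNA raised 57 and lowered 11 of them, with a median difference of 0.37 (background 16.0% and 10.9%). Of 104 GPR124-high probes that remained, 1 was higher and 42 lower, with a median of -0.25. The median shift of the F2RL2-high probes was therefore larger among the better measured ones. Outlier flags touched 3 F2RL2-high probes and 1 GPR124-high probe, on LGR4 replicate 3 and GPR124 replicates 1 and 2, and the flagged spots were left out of the fit. Members lay across the array, with rows from 2 to 531 and from 20 to 532 in the 2 sets.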

How the data were processed

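The 12 Agilent 2-colour arrays were all used. The deposited intensity columns held median spot and local background brightness per channel, and in the processed signal columns the deposited intensity had been corrected for background, spatial trend and dye by Agilent Feature Extraction, per the file headers. A log10 ratio that was also deposited (Cy5 over Cy3) was used only to check direction. The authors' log2 value table equalled log2 processed Cy3 over Cy5 within 5e-10, with column medians of 0.12, 0.14 and 0.087 (control), 0.11, 0.13 and -0.089 (F2RL2), 0.12, 0.11 and 0.15 (LGR4) and -0.25, -0.15 and -0.21 (GPR124). Scale, direction and centring are thus known.

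Members and lists were chosen with earlier results of these data known. The rule used processed signals. Other values used normexp (offset 50) and loess. Outlier spots were left out, and the 1417 control spots had weight 0. Of 43221 probes, 32346 were kept, well above background in 1 channel on at least 3 of 12 arrays, all 277 members among them. limma 3.58.1 in R 4.3.3 (lmFit, eBayes over all arrays) was used with Benjamini-Hochberg adjustment over the kept probes. It was also run on simulated data with independent noise on each array and no slide effect. That run therefore cannot show how the calls behave under slide differences or correlated arrays. Values are mean ± SD (n = 3). Channel values and fold bounds followed Aquantile scaling. For a group not well above background on any array, a bound used the higher of the dim probe's signal and the lowest signal among probes well above background on each array. It is open to dye bias without dye swaps. The number of arrays limits precision. Alternatives covered background correction, normalization, slide, replicate number, filters, flags, thresholds and single arrays.

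Named probes were, in each set, the 2 with the largest smaller difference after loess among members without flags whose F2RL2 and GPR124 arrays lay wholly on opposite sides of control. The rules for gene names and marker lists could not be applied without gene names.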

Additional observations from a re-analysis of the deposited data

How the results depend on the processing

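The LGR4 results kept their direction in both sets under every alternative run, and their sizes moved. The slide block linked LGR4 to control arrays through the F2RL2 arrays that chose the probes, so its direction is no check. Among F2RL2-high probes, 80 were called, and 40 with slide as a block; the median difference of 0.18 was 0.39 with processed signals, 0.16 with median centring, 0.20 with the slide block, 0.37 under the stricter filter and 0.25 in Cy3 alone. Among GPR124-high probes, 46 were called, 29 with median centring and 18 with the slide block, and the median of -0.24 was -0.50 with processed signals. Over all probes, 7456 were called, 3576 with median centring (74.3% of them higher, against 59.3%) and 2711 with the slide block. Leaving out 1 array gave 71 to 83 and 41 to 49 calls in the 2 sets, medians of 0.17 to 0.20 and -0.27 to -0.18, and 5414 to 8342 calls over all probes; for control against day 0 it gave 121 to 136 (132 with all arrays) and 67 to 84 (82).

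Set sizes depended on the rule. Thresholds of 0.5, 0.8 and 1.0 gave 281, 77 and 41 F2RL2-high and 216, 45 and 25 GPR124-high probes. Signal well above background on all 9 arrays left 76 of 167 F2RL2-high probes, and no such condition gave 253 GPR124-high probes. The rule on loess values found 120 F2RL2-high probes, 69 of them shared, and 34 GPR124-high probes, 31 shared. Leaving out 1 array gave 137 to 255 F2RL2-high probes (255 without F2RL2 replicate 1, 160 shared) and 105 to 162 GPR124-high probes. The causes were not tested.

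Same-numbered LGR4 and GPR124 arrays deviated together (correlations of 0.54, 0.40 and 0.22), and in every other pair of groups, those with control included, at least 1 correlation was below 0.1 (down to -0.58), so replicate numbers were not taken to pair the groups compared; with the replicate block 80 and 47 members and 6525 probes in all were called for LGR4. For the named probes, 302 of 312 values kept direction and side of the threshold, 9 lost their call, and the control ratio of AGPOA3-21213 turned from 0.097 to -0.44 with median centring. Low signal over background limits the dim members.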
